A study of Mus musculus with 6 samples.

Results

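The genes considered here encode the ligands and receptors of transforming growth factor-β (TGF-β) and activin, and comprise *Tgfb1*, *Tgfb2*, *Tgfb3*, *Tgfbr1*, *Tgfbr2*, *Tgfbr3*, *Inhba*, *Inhbb*, *Fst* and *Acvr1b*. They were chosen by name, as 10 of the 26579 genes in the count table, by a rule that used no measured value, although earlier results of these data were known when the list was made. All 10 passed the filter on low counts and were among the 15102 genes tested. RNA-Seq was performed on whole biopsies of dorsal neck skin from 3 wildtype mice and 3 YAP2-5SA-∆C mice (transgenic, TG), all female, littermates and 33 days old. The transgene of YAP2-5SA-∆C mice drives a mutant YAP (Yes-associated protein) whose activity is mildly raised, in the basal layer of the epidermis, where keratinocytes divide, whereas the biopsies held every cell type of the skin. The comparison asked how the skin transcriptome differed in the presence of this protein. A lower level in such bulk tissue can come from fewer cells of a type or from less RNA per cell, and these cannot be told apart.

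TGF-β and activin are secreted dimers that bind a type II receptor, which then activates a type I receptor, and the paired receptors phosphorylate the transcription factors SMAD2 and SMAD3. TGF-β is released in a latent complex and has to be freed before it can bind, and activins are neutralized outside the cell by follistatin. In skin, TGF-β is best known for restraining keratinocyte division and for stimulating collagen production by fibroblasts, and activin for its part in wound repair and hair follicle formation.

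Total counts ranged from 11225705 to 19505036 in wildtype and from 15942928 to 17482441 in TG libraries. *Yap1* itself had 125 to 142 CPM in wildtype and 129.6 to 144 CPM in TG skin, with a log2 fold change of 0.06 (standard error, SE, 0.07; FDR = 0.635, quasi-likelihood test of edgeR). CPM are counts scaled to library size, and whether transgene reads were included in the counts of *Yap1* is unknown. Markers of basal keratinocytes were present at 3315 to 6987 CPM in sum, and 1 listed suprabasal gene and 1 listed hair gene could not be matched and were left out of the sums. TG replicate 2 stood apart, with 1291 CPM in the sum of 6 hair shaft and inner root sheath genes, against 6208 and 7967 CPM in the other TG libraries and 11650 to 14240 CPM in wildtype. Values without this library are given beside several of the results.

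Promoter sequences of 7 of the 10 genes were matched in RefSeq (GRCm38.p6), with none for *Tgfb3*, *Tgfbr3* and *Fst*. The 250 bases before the transcription start are shown for 3 of them. *Inhba* and *Tgfbr2* are genes whose levels did not overlap between genotypes, and *Tgfb2* is a gene whose levels did. The *Inhba* stretch is at chr13:16011601-16011850 on the plus strand, the *Tgfbr2* stretch at chr9:116175364-116175613 on the minus strand and the *Tgfb2* stretch at chr1:186705990-186706239 on the minus strand. Each is written 5′ to 3′, and capitals mark TATAAA, the core of the TATA box.
Inhba: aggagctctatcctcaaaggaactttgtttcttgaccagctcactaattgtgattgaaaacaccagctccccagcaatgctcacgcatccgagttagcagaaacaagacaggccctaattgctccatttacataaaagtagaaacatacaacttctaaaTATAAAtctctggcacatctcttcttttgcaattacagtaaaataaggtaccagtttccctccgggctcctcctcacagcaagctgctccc
Tgfbr2: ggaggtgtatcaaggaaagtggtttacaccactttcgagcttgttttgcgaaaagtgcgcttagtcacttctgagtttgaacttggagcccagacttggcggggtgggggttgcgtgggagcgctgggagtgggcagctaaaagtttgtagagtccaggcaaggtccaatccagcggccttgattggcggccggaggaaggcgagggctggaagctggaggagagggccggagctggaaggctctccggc
Tgfb2: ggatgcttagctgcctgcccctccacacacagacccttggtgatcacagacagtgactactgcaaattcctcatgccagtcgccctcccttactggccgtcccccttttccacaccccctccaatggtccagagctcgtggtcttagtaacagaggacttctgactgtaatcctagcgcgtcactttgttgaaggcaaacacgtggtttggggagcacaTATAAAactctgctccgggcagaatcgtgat

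TATAAA, searched on the gene's strand only and after the data had been examined, began at position -91 from the start of *Inhba* and at -31 from that of *Tgfb2*, and was in 8.32% of all 32851 promoters of the same 300 bases (250 before the start and 50 from it). CATTCC, the core of the sites bound by TEAD factors (the DNA-binding partners of YAP), was searched on both strands and was found in 0 of the 8 promoters of these 7 genes, *Tgfbr1* having a second one, against 14.7% of all promoters. TGACTCA, the site of AP-1, was likewise in 0 of the 8, against 5.20% of all promoters. Sequence outside these 300 bases was not searched. These windows differed in base composition, with a GC content of 47.7% at *Inhba*, 54.3% at *Tgfb2*, 59.0% at *Tgfbr2* and 79.7% at *Acvr1b*, where the median of all promoters was 52.7%.

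Among the 10 genes, *Tgfb3*, *Tgfbr2*, *Tgfbr3*, *Inhba* and *Fst* were higher in every TG library than in any wildtype library, and *Tgfbr1* was lower in every one. Over all genes tested, 15.5% were above and 18.2% below wildtype in every TG library. None of the 10 genes had an FDR under 0.05 by edgeR's quasi-likelihood test, which called 1.91% of all genes tested. The same 5 genes that were higher in every TG library had an unadjusted p below 0.05, compared with 26.3% of all genes in either direction and 13.3% in the higher direction. The median log2 fold change (TG over wildtype) was 0.35 over the 10 genes, 7 of them positive, against -0.01 over all genes tested, 47.6% of them positive.

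The other tests differed in how many of these genes they called. The likelihood-ratio test of edgeR, which called 10.4% of all genes, gave an FDR of 0.0192 for *Tgfb3*, 0.0423 for *Fst* and 0.0475 for *Inhba*, 3 of the 10 genes. DESeq2, which called 10.7% of all genes, gave an adjusted p of 0.0148 for *Tgfbr3*, 0.0166 for *Tgfb3*, 0.0178 for *Tgfbr2* and 0.0304 for *Fst*, 4 of the 10 genes. With voom, which called 1.65% of all genes, 0 of the 10 genes had an adjusted p below 0.05, the lowest being 0.0663 for *Inhba*, and 6 had an unadjusted p below 0.05, as had 3986 of the 15102 genes tested. *Tgfb3* and *Fst* were therefore called by both tests with the longer lists, *Inhba* by the likelihood-ratio test alone, and *Tgfbr2* and *Tgfbr3* by DESeq2 alone. The plot of counts by library shows the values behind these tests.

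**Figure D1:**
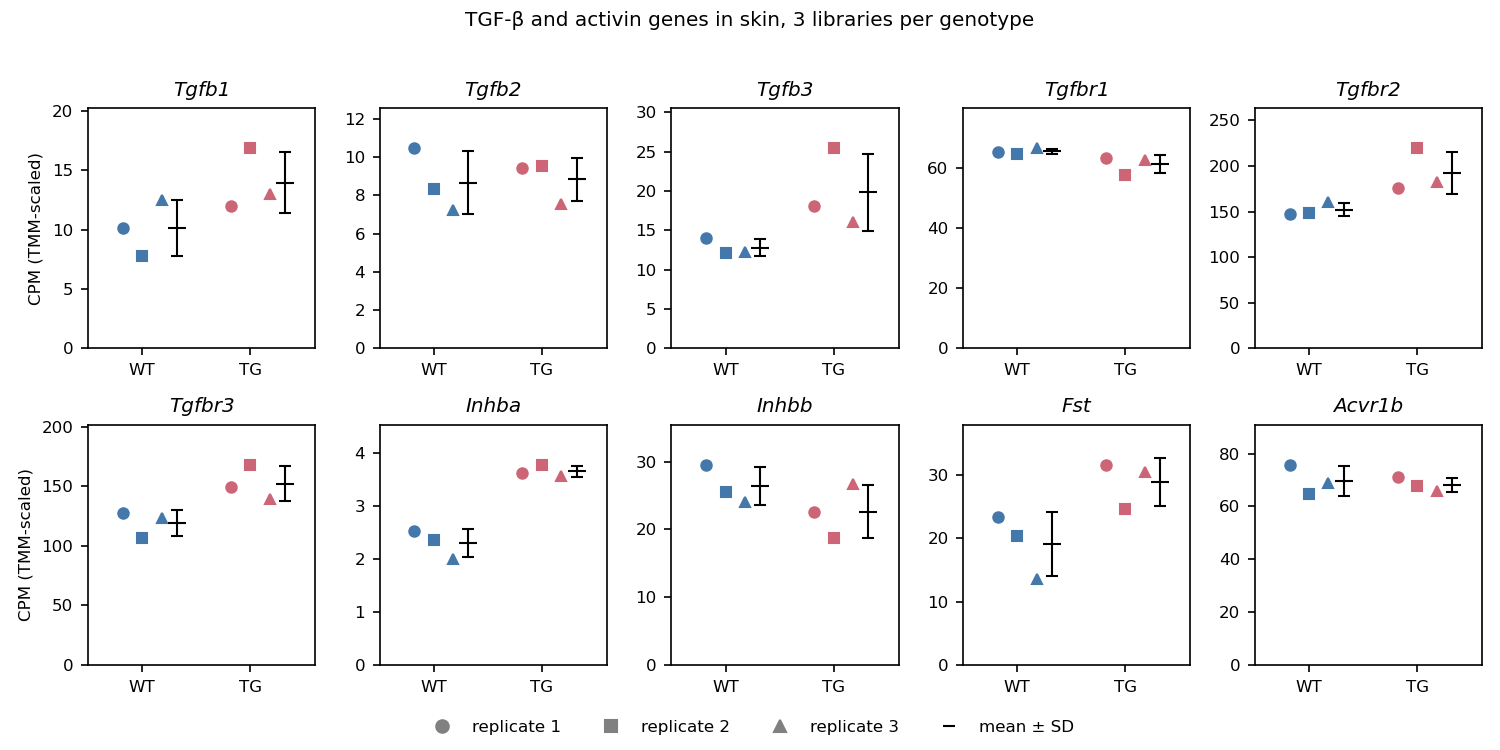
Level of each of the 10 genes in the 3 wildtype (WT, blue) and 3 YAP2-5SA-∆C (TG, red) libraries, in CPM on TMM-scaled library sizes with axes from 0; symbols are replicates and bars the mean ± SD. The groups do not overlap for *Tgfb3*, *Tgfbr2*, *Tgfbr3*, *Inhba* and *Fst* (TG higher) and *Tgfbr1* (TG lower), and TG replicate 2 is the highest TG library for *Tgfb3* at 25.4 CPM and for *Tgfbr2* at 219 CPM.

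The TGF-β ligand genes differed in how they stood between genotypes. *Tgfb3* (ENSMUSG00000021253, chromosome 12 of GRCm38, 86056745 to 86079041) encodes TGF-β3, the isoform known from palate fusion and from wound studies. It had 14.1, 12.1 and 12.3 CPM in wildtype replicates 1, 2 and 3, and 18.1, 25.4 and 16.1 CPM in the TG replicates. All TG libraries were above all wildtype libraries, and TG replicate 2 lay well above the other TG libraries. The log2 fold change was 0.63 (SE 0.18), a 1.55-fold higher mean (95% interval 1.16 to 2.07, FDR = 0.0840). Without TG replicate 2 the log2 fold change was 0.43 and the FDR 0.0740. Leaving out other single libraries gave FDR values up to 0.239.
*Tgfb1* (ENSMUSG00000002603, chromosome 7, 25687002 to 25705077) encodes TGF-β1, the isoform most studied in fibrosis and immune control. It had 10.1, 7.80 and 12.5 CPM in wildtype and 12.0, 16.8 and 13.0 CPM in TG skin. The groups overlapped, because wildtype replicate 3 was above TG replicate 1. The log2 fold change was 0.47 (SE 0.20, FDR = 0.193), leaving out single libraries moved it between 0.31 and 0.65, and without TG replicate 2 it was 0.33.
*Tgfb2* (ENSMUSG00000039239, chromosome 1, 186622792 to 186705989) encodes TGF-β2, which in hair follicles is known as a signal from the dermal papilla. It had 10.4, 8.32 and 7.23 CPM in wildtype and 9.40, 9.53 and 7.55 CPM in TG skin. The TG values lay inside the wildtype range, and the fold of 1.02 had a 95% interval of 0.775 to 1.33 (FDR = 0.944). Its log2 fold change was 0.02 and turned to -0.02 without TG replicate 2.

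Of the TGF-β receptor genes, *Tgfbr2* and *Tgfbr3* were higher and *Tgfbr1* slightly lower in all TG libraries. *Tgfbr2* (ENSMUSG00000032440, chromosome 9, 116084293 to 116175360) encodes the type II receptor, which binds the ligand first. It had 147, 149 and 161 CPM in wildtype and 177, 219 and 182 CPM in TG skin. The lowest TG library was above the highest wildtype library, and TG replicate 2 was again the highest. The log2 fold change was 0.34 (SE 0.09), a 1.27-fold higher mean (95% interval 1.09 to 1.48, FDR = 0.0831). Without TG replicate 2 the log2 fold change was 0.25 (FDR = 0.0752), and leaving out other single libraries gave FDR values up to 0.234.
*Tgfbr3* (ENSMUSG00000029287, chromosome 5, 107106570 to 107289629) encodes betaglycan, a co-receptor that presents TGF-β to the type II receptor and can also bind inhibin. It had 127, 107 and 124 CPM in wildtype and 149, 168 and 139 CPM in TG skin. All TG libraries were higher, with a log2 fold change of 0.35 (SE 0.10), 1.28-fold (95% interval 1.09 to 1.496, FDR = 0.0827). Leaving out single libraries kept the log2 fold change between 0.28 and 0.41, above 0 in each of the 6 fits. The FDR in these fits ran from 0.1 to 0.225.
*Tgfbr1* (ENSMUSG00000007613, chromosome 4, 47353222 to 47414931) encodes the type I receptor, the kinase that phosphorylates SMAD2 and SMAD3. It had 65.5, 64.7 and 66.6 CPM in wildtype and 63.3, 57.9 and 62.9 CPM in TG skin. All TG libraries were lower than all wildtype libraries, and the fold of 0.935 had a 95% interval of 0.849 to 1.03 (FDR = 0.342). Without TG replicate 2 the log2 fold change moved from -0.10 to -0.04.

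Of the activin genes, *Inhba* (ENSMUSG00000041324, chromosome 13, 16011851 to 16031621) had the lowest p of the 10 genes in the quasi-likelihood test and with voom, but not in the likelihood-ratio test or DESeq2. It encodes the βA subunit, a dimer of which is activin A, and is a known target of YAP in other cells. Its counts were 46, 45 and 21 in wildtype and 65, 64 and 57 in TG libraries, or 2.53, 2.36 and 2.00 CPM against 3.62, 3.77 and 3.56 CPM. The groups did not overlap, and the TG libraries lay within a narrow range. The log2 fold change was 0.65 (SE 0.15), a 1.57-fold higher mean (95% interval 1.23 to 2.01, FDR = 0.0620). It stayed between 0.59 and 0.73 when single libraries were left out, with FDR values from 0.0861 to 0.198. At 21 counts, the counting error of 1 library alone was 21.8%, against 2.43% for the smallest count of *Tgfbr2*, 1691.
*Inhbb* (ENSMUSG00000037035, chromosome 1, 119415465 to 119422248) encodes the βB subunit of activin B. It had 29.5, 25.6 and 24.1 CPM in wildtype and 22.5, 18.8 and 26.7 CPM in TG skin. The groups overlapped, with TG replicate 3 above wildtype replicates 2 and 3. The log2 fold change was -0.22 (SE 0.14, FDR = 0.357), -0.09 without TG replicate 2 and -0.35 without TG replicate 3.

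*Fst* (ENSMUSG00000021765, chromosome 13, 114452290 to 114458951) encodes follistatin, which binds activin and blocks its access to the receptors. It had 23.3, 20.4 and 13.5 CPM in wildtype and 31.6, 24.7 and 30.5 CPM in TG skin. The groups did not overlap, although TG replicate 2 exceeded wildtype replicate 1 by only a little. The log2 fold change was 0.59 (SE 0.20), a 1.51-fold higher mean (95% interval 1.09 to 2.10, FDR = 0.125). Without wildtype replicate 3, the shallowest library, it was 0.41 (FDR = 0.211), and without TG replicate 2 it was 0.71 (FDR = 0.0944). Over all fits that left out single libraries the FDR reached 0.254.
*Acvr1b* (ENSMUSG00000000532, chromosome 15, 101174067 to 101213684) encodes the type I receptor of activin. It had 75.7, 64.5 and 68.7 CPM in wildtype and 71.2, 67.6 and 65.8 CPM in TG skin, so that the TG values lay within the wildtype range. The fold was 0.980 (95% interval 0.866 to 1.11, FDR = 0.830). The interval left room for a difference of either sign, so that equal levels were not shown.

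**Figure D2:**
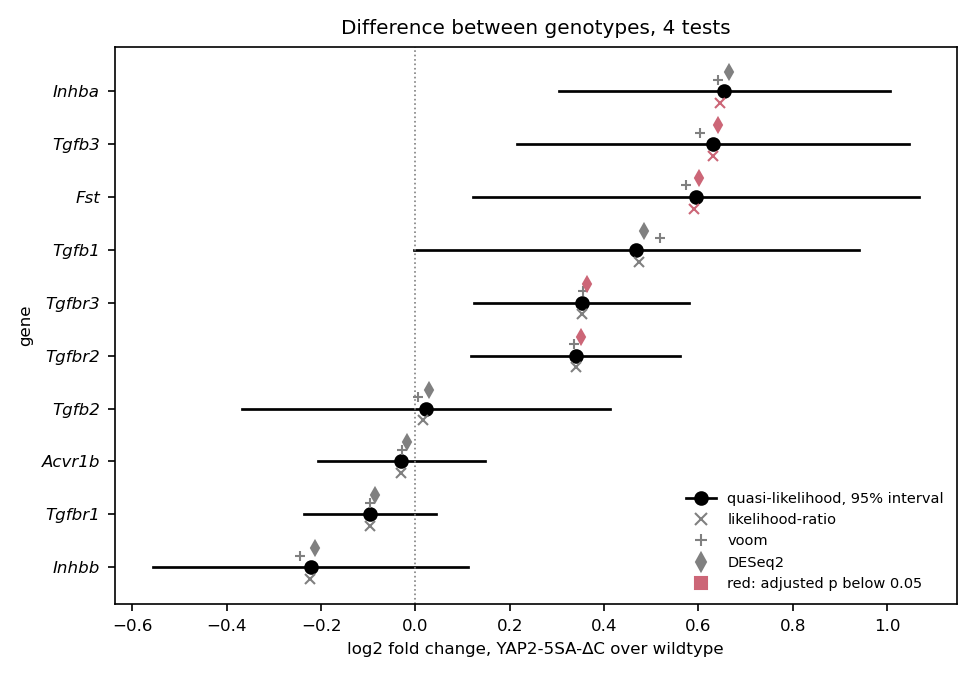
Log2 fold change (TG over wildtype) of the 10 genes by the quasi-likelihood test with its 95% interval (black), the likelihood-ratio test, voom and DESeq2; red marks an adjusted p below 0.05. The estimates of the 4 tests nearly coincide for each gene, from 0.65 for *Inhba* to -0.22 for *Inhbb* in the quasi-likelihood fit, and red occurs only for the likelihood-ratio test (3 genes) and DESeq2 (4 genes).

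Levels were compared between genes per kilobase of exon (RPKM, on the same scaled library sizes). In wildtype skin *Tgfbr2* was highest with 18.6 ± 0.915 RPKM (SD, n = 3), followed by *Tgfbr3* with 18.2 ± 1.68 and *Acvr1b* with 15.8 ± 1.28 RPKM. *Tgfbr2* overlapped with *Tgfbr3*, and *Tgfbr3* with *Acvr1b*, so that the order of these neighbours was not resolved. *Tgfbr1* followed with 10.04 ± 0.143 RPKM and *Inhbb* with 6.20 ± 0.661 RPKM, each clear of its neighbours. *Fst* with 4.16 ± 1.10 and *Tgfb3* with 3.79 ± 0.324 RPKM overlapped, as did *Tgfb1* with 2.01 ± 0.463 and *Tgfb2* with 1.496 ± 0.282 RPKM. *Inhba* was lowest with 0.359 ± 0.0424 RPKM, and *Tgfbr2* stood 51.8 times above it.
The receptor genes were thus all above the genes for ligands and follistatin, in TG skin as in wildtype. In TG skin *Tgfbr2* had 23.5 ± 2.83 and *Tgfbr3* 23.3 ± 2.24 RPKM (SD, n = 3), and both were clear of *Acvr1b* with 15.4 ± 0.617 RPKM. *Fst* with 6.30 ± 0.811 and *Tgfb3* with 5.87 ± 1.45 RPKM had means above that of *Inhbb* with 5.32 ± 0.926 RPKM, whereas in wildtype *Inhbb* stood above both. *Fst* overlapped with *Tgfb3* and *Tgfb3* with *Inhbb*, so this change of order is one of means. *Inhba* remained lowest with 0.571 ± 0.0168 RPKM, and *Tgfbr2* was 41.3 times above it.

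**Figure D3:**
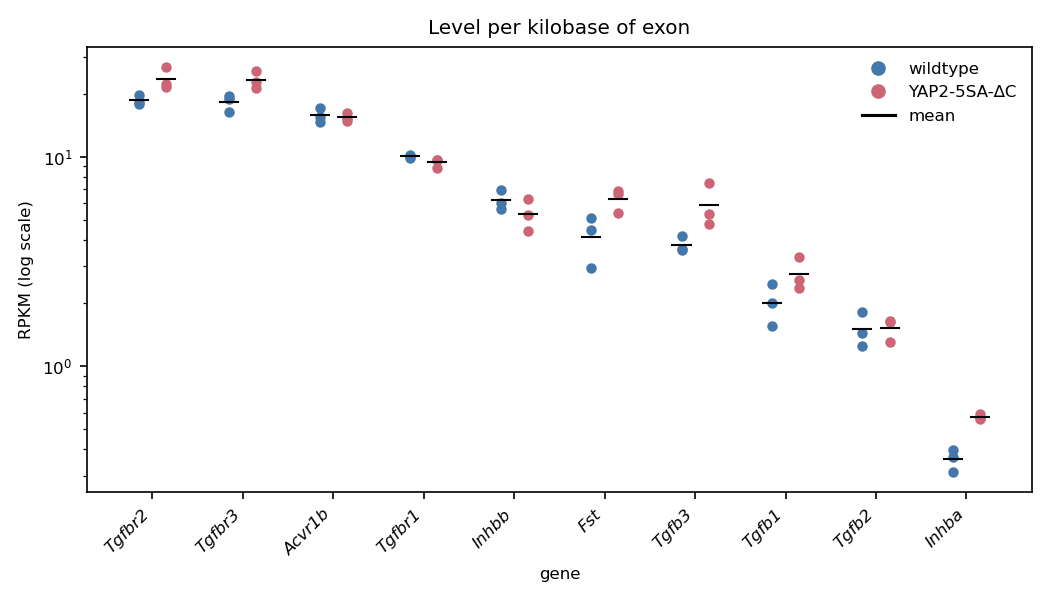
RPKM (log axis) of the 10 genes, ordered by the wildtype mean, with 1 point per library and a bar at the mean of wildtype (blue) and YAP2-5SA-∆C (red) skin. The 4 receptor genes lie at the left from 8.86 to 26.8 RPKM, and *Inhba* at the right reaches at most 0.589 RPKM.

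Ratios within a library do not depend on the scaling between libraries. The log2 ratio of *Inhba* to *Fst* counts, ligand subunit to inhibitor, was -3.20, -3.12 and -2.76 in wildtype and -3.13, -2.71 and -3.10 in TG libraries. These overlapped, and their means were 0.05 apart (exact permutation test, two-sided, p = 0.6, where 3 libraries against 3 cannot give less than 0.1). The log2 ratio of *Tgfbr3* to *Tgfbr2*, co-receptor to type II receptor, was -0.21, -0.48 and -0.38 in wildtype and -0.24, -0.38 and -0.39 in TG libraries, with means 0.02 apart (exact permutation test, two-sided, p = 1). Both genes of each pair were higher in TG skin, and neither ratio differed beyond the spread of the libraries.
*Tgfb1* made up 25.2%, 23.6% and 33.6% of the length-scaled counts of the TGF-β ligand genes in wildtype and 25.4%, 26.7% and 29.9% in TG libraries (exact permutation test, two-sided, p = 1). The other quantities of this kind were picked after their values were seen and were not tested. *Tgfb3* had the largest share in every library, with 52.2%, 54.5% and 49.4% in wildtype and 57.2%, 60.1% and 55.0% in TG skin, groups that did not overlap. *Tgfb2* had 17.0% to 22.6% in wildtype and 13.2% to 17.4% in TG skin, which overlapped. The log2 ratio of *Inhba* to *Inhbb* counts was -3.55, -3.44 and -3.59 in wildtype and -2.64, -2.32 and -2.91 in TG libraries, a difference in means of 0.91 without overlap. The activin subunit genes thus stood closer together in TG skin, although *Inhbb* counts remained above *Inhba* counts in all libraries.

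Of 54 further genes of the pathway, listed by role, 51 were in the count table and all of these were tested. The quasi-likelihood test called 3 of them, *Thbs1* and *Nrros* higher and *Ctgf* lower in TG skin, where it called 1.91% of all genes. Their median log2 fold change was 0.04, with 29 positive and 22 negative, and 11 were higher and 12 lower than wildtype in every TG library (15.5% and 18.2% of all genes). The likelihood-ratio test called 11, DESeq2 14 and voom 3 of the 51, against 10.4%, 10.7% and 1.65% of all genes. When single libraries were left out, *Thbs1* was still called without TG replicate 1 or 2 and *Nrros* and *Ctgf* without TG replicate 2, and in the other fits they were not.
The called higher genes were both among the 15 genes for the extracellular control of TGF-β, whose median log2 fold change was 0.18. Of these 15, 5 were higher and 2 lower in every TG library (15.5% and 18.2% of all genes). *Thbs1* encodes thrombospondin-1, which can release TGF-β from its latent complex. It had 111, 109 and 110.1 CPM in wildtype and 148, 171 and 152 CPM in TG skin, with a log2 fold change of 0.51 (SE 0.07, FDR = 0.0346). *Nrros* encodes a protein that tethers latent TGF-β1 to the surface of macrophages and related cells. It rose from 17.7, 18.1 and 17.6 CPM to 24.8, 25.0 and 24.7 CPM, a log2 fold change of 0.48 (SE 0.06, FDR = 0.0347), and its libraries were nearly level within each genotype. The summed level of 5 macrophage markers moved with it, from 314 to 361 CPM in wildtype to 439 to 502 CPM in TG skin, with 2 of the 5 called higher, and its part in the *Nrros* result was not tested.
*Ctgf* (listed as *Ccn2* in the annotation), 1 of 14 target genes of TGF-β, encodes a matricellular protein and is also a known target of YAP. It fell from 24.5, 24.6 and 26.4 CPM to 15.02, 12.2 and 15.3 CPM, a log2 fold change of -0.82 (SE 0.10, FDR = 0.0327). The median log2 fold change of the 14 target genes was 0.14, and 4 of them were higher and 4, *Ctgf* included, lower in every TG library.
In the remaining lists the quasi-likelihood test called 0 genes, with 2 higher and 5 lower at an unadjusted p below 0.05, which 26.3% of all genes had. Among 11 intracellular mediators, with a median log2 fold change of -0.09 and 8 negative, *Smad7*, the inhibitory SMAD, had 22.3, 29.3 and 25.8 CPM in wildtype and 16.1, 13.2 and 18.9 CPM in TG skin (log2 fold change -0.68, FDR = 0.0620). *Smurf2*, a ubiquitin ligase that acts with SMAD7 on the receptors, had 84.4, 84.3 and 83.7 CPM against 72.0, 69.0 and 73.9 CPM (log2 fold change -0.23, FDR = 0.0622). Both were lower in every TG library, with *Smad7* also called by the likelihood-ratio test (FDR = 0.00502) and DESeq2 (adjusted p = 0.00367).
Among 8 other receptor genes the median log2 fold change was 0.01. *Eng*, the co-receptor endoglin of endothelial cells, had 15.1, 12.7 and 15.1 CPM in wildtype and 19.7, 21.8 and 19.5 CPM in TG skin (log2 fold change 0.51, FDR = 0.0527), and was called by the likelihood-ratio test (FDR = 0.0216) and DESeq2 (adjusted p = 0.00556). The quasi-likelihood test also called it with RLE scaling (FDR = 0.0496), without the low-count filter (FDR = 0.0433) and on protein-coding genes alone (FDR = 0.0487). *Eng* was not called by voom (adjusted p = 0.0541) or when single libraries were left out. Nor was it called with at least 10 counts in every sample or with the replicate block. The sum of 5 endothelial markers was 96.1 to 114.7 CPM in wildtype and 115.1 to 138.5 CPM in TG skin, without overlap, with *Pecam1* and *Cdh5* higher in every TG library and 0 of the 5 called, and its part in the *Eng* values was not tested. *Bambi*, a decoy receptor without a kinase, had 58.6, 68.5 and 73.4 CPM in wildtype and 36.04, 8.65 and 36.07 CPM in TG skin (log2 fold change -1.31, FDR = 0.141), and was called by the likelihood-ratio test (FDR = 0.00922). TG replicate 2, which was also lowest in hair shaft and inner root sheath genes, was the lowest for *Bambi*, and without it the log2 fold change was -0.87 with an FDR of 0.0132.
Of the other ligands, 3 of 6 were tested. *Mstn*, encoding myostatin of skeletal muscle, had 4.01, 26.3 and 23.8 CPM in wildtype and 9.57, 4.12 and 3.495 CPM in TG skin (log2 fold change -1.64, FDR = 0.188), and was called by the likelihood-ratio test alone (FDR = 0.0182). *Gdf11*, encoding a ligand related to myostatin, had 1.81 to 2.66 CPM in wildtype and 2.12 to 3.12 CPM in TG skin (FDR = 0.537). *Mstn* varied within wildtype as the sum of 4 skeletal muscle markers did, which was 1023, 5478 and 4451 CPM in wildtype and 2617, 1487 and 919 CPM in TG skin, and the part of muscle in its values was not tested.

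**Figure D4:**
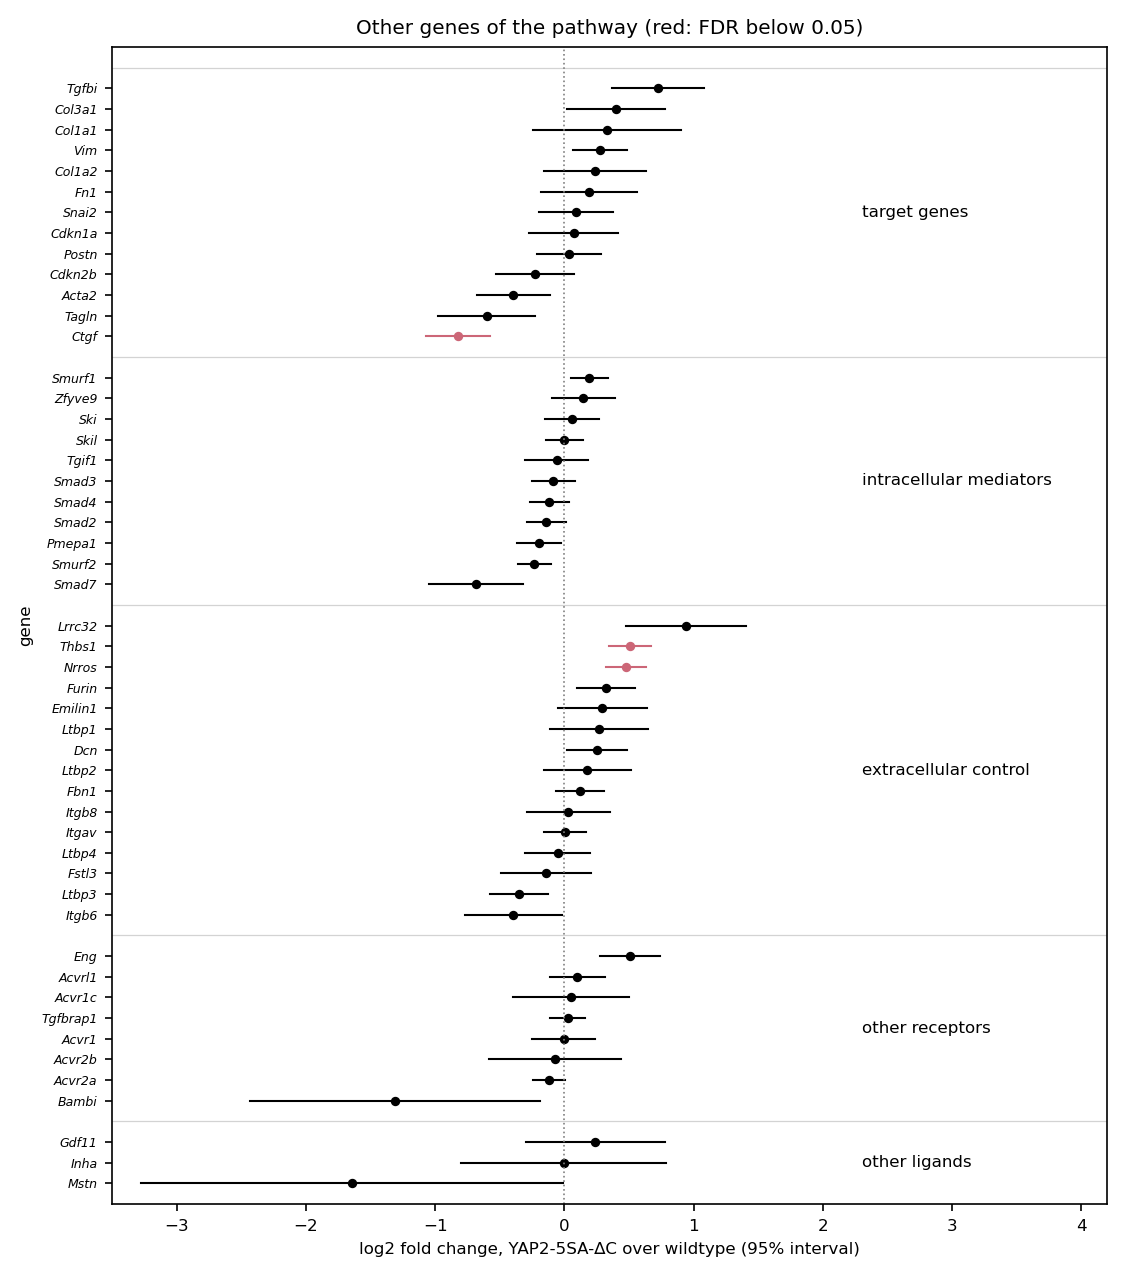
Log2 fold change (TG over wildtype) with its 95% interval for further genes of the TGF-β and activin pathway, grouped by role; red marks genes called by the quasi-likelihood test (FDR under 0.05). Red occurs for *Thbs1* (0.51), *Nrros* (0.48) and *Ctgf* (-0.82), and *Smad7* is the lowest of the intracellular mediators at -0.68.

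Several marker lists also differed between the genotypes in the same libraries as the 10 genes. The sum of 6 basal keratinocyte markers was 3315 to 3921 CPM in wildtype and 5406 to 6987 CPM in TG skin. Of the 6, 4 were higher in every TG library (15.5% of all genes) and *Itgb4* and *Trp63* overlapped. The quasi-likelihood test called 1 of the 6 higher, and 1.91% of all genes in either direction. The sum of 4 suprabasal markers was 3378 to 4084 against 4361 to 8231 CPM, with 0 called and only *Krt1* higher in every TG library. The macrophage and endothelial sums given above were likewise higher in all TG libraries. The basal and suprabasal sums, and those of fibroblast, macrophage and T cell markers, were highest in TG replicate 2. So were *Tgfb1*, *Tgfb3*, *Tgfbr2*, *Tgfbr3* and *Inhba*, the last by little (3.77 against 3.62 and 3.56 CPM in the other TG libraries). *Fst* was lower there than in the other TG libraries (24.7 against 31.6 and 30.5 CPM), and the endothelial sum was highest in TG replicate 3.
The sum of 6 fibroblast markers overlapped between the genotypes, at 9449 to 12800 CPM in wildtype and 12260 to 15940 CPM in TG skin. Even so, 4 of the 6 (*Pdgfra*, *Col3a1*, *Dcn* and *Lum*) were higher in every TG library, as were 15.5% of all genes, and 0 were called. The sums also overlapped for T cells (4.24 to 5.83 and 4.95 to 7.35 CPM) and for adipocytes (259 to 345 and 255 to 356 CPM). The part of cell composition in the differences of *Tgfb3*, *Tgfbr2*, *Tgfbr3*, *Inhba* and *Fst* was not tested. In the annotation, 7.60% and 4.82% of the exon bases of *Tgfb3* also belong to 2 genes on the opposite strand, 2.51% of those of *Fst* and 2.14% of those of *Tgfb2* to 1 such gene each, and 4.54% of those of *Tgfbr3* to a gene on the same strand. The strand setting of the counting was not given in the sources used here, so a part of these counts may be shared or lost.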

How the data were processed

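RNA was extracted from skin of 3 wildtype and 3 YAP2-5SA-∆C mice. A table of raw gene counts was deposited by the authors, who aligned the reads to GRCm38 using TopHat2 (2.0.12) with Bowtie2 (2.1.0), versions as in the submitters' processing notes, and counted uniquely mapped reads using HTSeq-count. The methods of the paper name an earlier version of TopHat2. The annotation release of the counting was not given in the sources used here. The labels name a kit for total RNA, whereas the methods describe mRNA libraries.

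Columns were matched to mice by their names. Positions, exon lengths and gene names came from GENCODE release M21 (558 identifiers absent), and promoters from RefSeq. The 15102 genes that reached 1 CPM in 3 or more samples were scaled with TMM and tested with glmQLFit and glmQLFTest of edgeR 4.0.16 in R 4.3.3, with genotype as the only term and Benjamini-Hochberg adjustment over all genes tested (FDR, threshold 0.05). The unit of replication was the mouse. The alternatives were the likelihood-ratio test, voom (limma 3.58.1), DESeq2 1.42.0, RLE scaling, no filter, at least 10 counts in every sample, a replicate block and the omission of each library in turn. A fit on protein-coding genes alone was chosen after seeing the data. The scripts were tested on simulated data.

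The members and lists were chosen with earlier results of these data known. From each pathway list the text names every gene called (at most 4 in each direction) or, where none was called, the 2 with the lowest p. Values of 1 target gene enter the counts and medians of its list but are not reported here. Total counts per library (11225705 to 19505036) limit the precision of low genes such as *Inhba*.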

Additional observations from a re-analysis of the deposited data

How the results depend on the processing

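The quasi-likelihood test called 288 genes of all tested, 0 of the 10 TGF-β and activin genes and 3 of the 51 further pathway genes. These counts were 1568, 3 and 11 with the likelihood-ratio test and 1590, 4 and 14 with DESeq2. Without a filter on low counts, 497 of the 26579 genes then tested and 6 pathway genes were called. Leaving out single libraries moved the counts between 0 and 816 for all genes and between 0 and 6 for the pathway genes, both highest without TG replicate 2, and gave 0 of the 10 genes in each of the 6 fits, with 5 or 6 of them at an unadjusted p below 0.05. All genes called came to 142 without wildtype replicate 1, 86 without TG replicate 1 and 0 without wildtype replicate 2, wildtype replicate 3 or TG replicate 3. Genes with p below 0.05 before adjustment numbered 2725, 2844 and 3692 without wildtype replicate 2, wildtype replicate 3 and TG replicate 3. They numbered 3841, 3674 and 3103 without wildtype replicate 1, TG replicate 1 and TG replicate 2. Each of the 6 fits tested between 14914 and 14999 genes. The cause of these shifts was not tested.

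The share of higher genes among those called was 75.7% in the quasi-likelihood test, 53.1% in the likelihood-ratio test, 60.3% with DESeq2, 49.9% without TG replicate 2, 86.6% without wildtype replicate 1 and 88.4% without TG replicate 1. Samples with the same replicate number did not deviate together (correlations of -0.33, -0.23 and -0.05), and no TG library correlated best with the wildtype library of its own number. With the replicate block, 0 genes and 0 pathway genes were called, with 2949 genes at an unadjusted p below 0.05.

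The log2 fold changes of 8 of the 10 genes kept their direction in all 14 alternatives. Those of *Tgfb2* (main value 0.02) ranged from -0.078 to 0.18 and those of *Acvr1b* (main value -0.03) from -0.082 to 0.040 when single libraries were left out, and both changed sign. The ratios of *Inhba* to *Fst* and of *Tgfbr3* to *Tgfbr2* and the share of *Tgfb1* moved by less than their spread between libraries, and the other ratios and shares were not recomputed. Depth limited *Inhba* most, with 21 counts in the shallowest library.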

Other observations

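Further TGF-β target and control genes, picked after their values were seen, were called by both the likelihood-ratio test of edgeR and DESeq2 but not by the quasi-likelihood test as reported, which did call both genes named next when the filter on low counts was dropped (FDR = 0.0420 for *Tgfbi* and 0.0430 for *Lrrc32*), *Tgfbi* without TG replicate 2 (FDR = 0.0457) and *Lrrc32* without wildtype replicate 1 (FDR = 0.0385). *Tgfbi*, a secreted matrix protein gene named for its induction by TGF-β, had 156, 111 and 139.8 CPM against 218, 259.6 and 193 CPM (log2 fold change 0.72, SE 0.15, quasi-likelihood FDR = 0.0565). *Lrrc32*, which encodes the latent TGF-β carrier GARP, had 8.69, 5.18 and 6.18 CPM against 11.7, 14.3 and 12.7 CPM (log2 fold change 0.94, SE 0.20, FDR = 0.0564). Both were higher in 3 of 3 TG libraries than in any wildtype library.

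Other targets had lower values in TG skin. *Tagln*, a gene of contractile cells, had 55.7, 54.3 and 41.9 CPM in wildtype and 39.4, 27.5 and 33.4 CPM in TG skin (log2 fold change -0.60, SE 0.16, quasi-likelihood FDR = 0.0768), and was called by the likelihood-ratio test (FDR = 0.0160) and DESeq2 (adjusted p = 0.00661). *Acta2* had 139.6, 126 and 112 CPM against 109.8, 84.4 and 92.4 CPM (log2 fold change -0.40, SE 0.12, FDR = 0.0982), and was called by DESeq2 alone. Among the control genes, *Ltbp3* and *Itgb6* were lower in every TG library (log2 fold change -0.35 and -0.39, quasi-likelihood FDR = 0.0823 and 0.174). DESeq2 called *Ltbp3* (adjusted p = 0.0412).

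Of the collagen genes, *Col3a1* had 4610 to 5663 CPM in wildtype and 6117 to 7515 CPM in TG skin (log2 fold change 0.40, quasi-likelihood FDR = 0.169), was higher in every TG library and was called by DESeq2 alone (adjusted p = 0.00425), whereas *Col1a1* and *Col1a2* overlapped between genotypes.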
